A study of Mus musculus with 19 samples.

Results

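Mouse CD8 T lymphocytes that express Stat5ca, a constantly active Stat5, were compared with control effectors after 72 h of activation. The comparison sets 2 arrays of Stat5ca cells against 4 arrays of control cells, 6 of the 19 arrays of the study, and takes in all 19938 genes that could be assigned a probe set. The arrays were chosen by their titles, and no measured value was used to choose them. Every one of the 6 arrays held 0.125 µg of RNA from purified CD8 T cells of B10.D2 mice that are Rag-1-/- and carry the TCRP1A transgenic T-cell receptor. The Stat5ca arrays, numbered 9 and 10, came from cells transduced to express Stat5ca and labelled GFP+, with RNA integrity numbers of 8 and 9. The control arrays, numbered 1 to 4, came from cells activated for 72 h with the antigen that their receptor recognises, with RNA integrity numbers of 9, 10, 9 and 9. For the control cells the labels name neither a transduction nor GFP, so Stat5ca cannot be told apart from transduction or from selection by GFP. The rest of the study held naive cells (n = 4) and cells recovered after transfer into hosts (n = 9 over 3 groups).

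Cytokines of the common gamma-chain family, interleukin-2 and interleukin-7 among them, act through Janus kinases that phosphorylate STAT5A and STAT5B. The phosphorylated proteins pair, enter the nucleus and bind a palindromic DNA element in the control regions of genes for survival, growth and feedback inhibition. In CD8 T cells this pathway is known for sustaining survival and for shaping the balance between short-lived effector and long-lived memory cells, and an active form of Stat5 signals without the cytokine.

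All values are log2 signals as deposited, and a change is the Stat5ca mean minus the control mean on that scale, with its standard error. Whether the arrays of 1 group stand for different mice or cultures is not in the labels. The spread within a group may thus be technical. Each p-value reflects only this spread, pooled over all groups of TCRP1A arrays in the fit, naive and transferred cells among them. A wide spread among naive or transferred cells can leave a gene uncalled even where the Stat5ca and control arrays lie close within their groups. A gene was said to have risen or fallen where the Benjamini-Hochberg adjusted p of the limma fit was under 0.05. T cells have no use for olfactory and vomeronasal receptors, and the 95th percentile of the signals of 1178 such genes, 7.31, is called the background level. In bulk RNA, fewer cells of a type and less RNA per cell cannot be told apart.

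The control arrays stood as 2 pairs. Over all genes, control arrays 1 and 4 correlated at 0.998 and control arrays 2 and 3 at 0.996, while the correlations between the pairs were 0.987 to 0.989, and the Stat5ca arrays correlated with each other at 0.995. Genes of the sex chromosomes separated the same pairs. Xist, the RNA of the inactive X chromosome, read 5.97 and 12.52 on the Stat5ca arrays and 6.18, 12.92, 12.84 and 6.35 on the control arrays. Eif2s3y, a gene of the Y chromosome, read 10.73 and 9.29 on the Stat5ca arrays and 10.62, 5.16, 4.93 and 10.77 on the control arrays. Stat5ca array 9 and control arrays 1 and 4 thus read male, control arrays 2 and 3 read female, and Stat5ca array 10 carried signal of both kinds. Markers of myeloid cells also separated the arrays. The mean over 18 such markers was 7.38 and 7.26 on the Stat5ca arrays, against 9.56, 8.79, 8.75 and 9.52 on the control arrays, and 7 and 6 of the 18 lay above background on the Stat5ca arrays, against 17, 14, 15 and 17 on the control arrays. The lymphocyte markers Cd3e and Cd8a were high on all 6 arrays, between 13.28 and 13.63 for Cd3e and between 12.96 and 13.26 for Cd8a. Markers of B cells were near background, with means of 7.14 and 7.13 on the Stat5ca arrays and 6.93 to 6.94 on the control arrays. What part the myeloid RNA, the sex of the cells or the control pairs have in each result below was not tested beyond the fits whose values stand beside it.

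**Figure D1:**
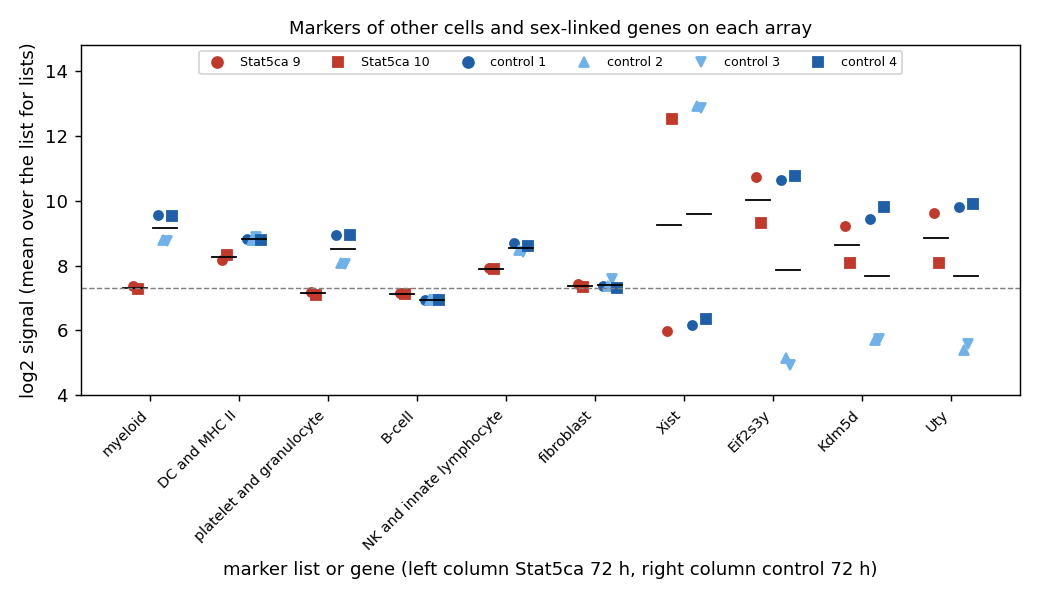
Points give the log2 signal on each array, as the mean over a list for 6 marker lists and as the single value for 4 sex-linked genes, with Stat5ca arrays (red) left of control arrays (dark blue for arrays 1 and 4, light blue for arrays 2 and 3), black lines at group means and a dashed line at the background level of 7.31. The myeloid mean was 7.38 and 7.26 on the Stat5ca arrays and 8.75 to 9.56 on the control arrays, and the sex-linked genes put control arrays 1 and 4 apart from 2 and 3.

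Across all genes, 1140 of 19938 were called (5.72%), of which 472 rose (2.37%) and 668 fell (3.35%). Each list count below is to be read beside these shares, and no list was tested. The median change over all genes was 0.04. Among the called genes, 67 rose and 116 fell at least 2-fold. In all 1140 the Stat5ca and control arrays did not overlap, but this was so of 6566 of all genes (32.9%). Leaving out a Stat5ca array leaves 1 in its group, which tends to widen the standard error. A call can then end though the change hardly moves. The arrays at hand decided much of the count. It was 98 without Stat5ca array 10, 463 without Stat5ca array 9, 594 without control array 1, 616 without control array 4, 1172 without control array 2 and 1797 without control array 3. Without the control pair 1 and 4 it was 329, of which 285 were also called with all arrays, and without the pair 2 and 3 it was 2883, with 1060 shared. With the myeloid level as a covariate 1160 genes were called, 584 of them shared, and the comparison of male arrays alone, Stat5ca array 9 against control arrays 1 and 4, called 1161, with 597 shared. Of the 1140 genes, 75 were called in each of the 6 fits that left out 1 array.

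**Figure D2:**
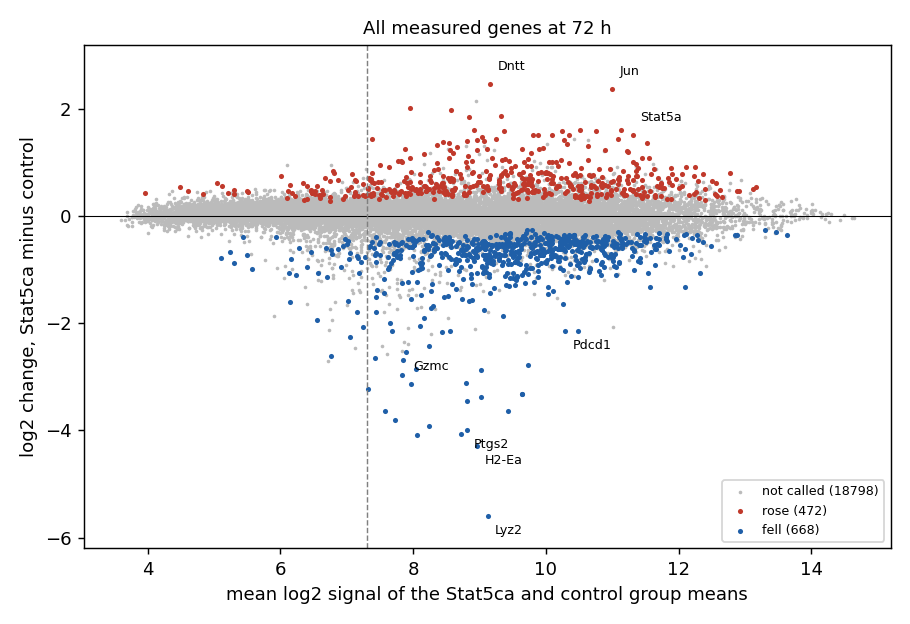
Each point is 1 of 19938 genes, with the mean of the 2 group means (log2 signal) across and the log2 change of Stat5ca minus control up, red where the gene rose (472), blue where it fell (668) and grey where it was not called. The dashed line marks the background level of 7.31, and the furthest falls, among them Lyz2 and H2-Ea, reached further than any rise.

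Stat5a read 12.002 and 12.12 on the Stat5ca arrays and 10.59, 10.57, 10.57 and 10.50 on the control arrays. The change was 1.50 ± 0.13 (adjusted p = 1.31e-05). Whether its probe set also read the introduced Stat5ca, and not only the gene of the cell, was not tested. Both Stat5ca arrays stood above every control array, and the control arrays lay close together across both pairs. Stat5b, which encodes the sister protein, read 11.25 and 11.55 on the Stat5ca arrays and 11.21, 11.41, 11.37 and 11.22 on the control arrays and was not called (0.10 ± 0.12, adjusted p = 0.699); its groups overlapped. Of 18 genes for Janus kinases, STAT proteins and their brakes, Stat5a rose and Ptpn6 fell, with a median change of 0.06. Ptpn6, which encodes the phosphatase SHP-1 that damps antigen-receptor and cytokine signals, changed by −0.49 ± 0.12. The adjusted p passed the threshold no longer without Stat5ca array 9 for Ptpn6 (−0.56), without Stat5ca array 10 for Ptpn6 (−0.41), and without control array 1 for Ptpn6 (−0.49).

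Of 26 known STAT5 target genes, all measured and all above background, 5 rose, 1 fell and 20 were not called. Of all genes 2.37% rose and 3.35% fell. The median change of the list was 0.35 against 0.04 over all genes. Socs3, a feedback inhibitor that binds cytokine receptors, read 10.66 and 11.05 on the Stat5ca arrays and 8.77, 9.84, 9.98 and 8.76 on the control arrays. Pim1, a survival kinase, read 12.37 and 12.04 on the Stat5ca arrays and 10.50, 11.10, 11.18 and 10.56 on the control arrays. Both were highest on the Stat5ca arrays, and within the controls both were lower on arrays 1 and 4 than on 2 and 3. Socs3 rose by 1.52 ± 0.34 (adjusted p = 0.0167), Pim1 by 1.37 ± 0.25 (adjusted p = 0.00561), Myc, the growth regulator, by 0.78 ± 0.16 (adjusted p = 0.0106) and Socs1, another feedback inhibitor, by 0.74 ± 0.20 (adjusted p = 0.042). The feedback gene most used as a readout of STAT5, Cish, read 10.36 and 9.86 on the Stat5ca arrays and 9.37, 9.75, 9.78 and 9.54 on the control arrays. Its Stat5ca arrays lay above all controls, array 10 only narrowly, and it was not called (0.50 ± 0.19, adjusted p = 0.16), nor were Socs2 (1.03 ± 0.39, adjusted p = 0.151) and the survival gene Bcl2 (0.51 ± 0.16, adjusted p = 0.086). The 1 fall was Il2rb, described with the receptors. The calls of Socs3, Pim1, Myc and Socs1 ended without Stat5ca array 9 (1.71, 1.21, 0.78 and 0.95). They also ended without Stat5ca array 10 (1.32, 1.54, 0.78 and 0.53). That of Socs1 ended without control array 1 (0.73), 2 (0.75) or 4 (0.73) as well. Without control arrays 1 and 4 only 1 target gene rose (Foxp3), without control arrays 2 and 3 there were 9 rises and 1 fall, and with the myeloid mean added as a covariate 3 rises.

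The DNA element bound by STAT5 dimers, TTCNNNGAA, reads the same on both strands and was looked for in RefSeq promoter windows of build GRCm38.p6, which run from 250 bases before a start site to 50 after it. A window was at hand for 15614 of the measured genes, some with several, and 1403 of these genes (8.99%) held the element in at least 1 window. Among genes that rose it was 39 of 359 (10.9%), among genes that fell 35 of 532 (6.58%), and among the STAT5 target genes, which were listed for being known targets, 8 of 21. Of the 4 called target genes with a window, Socs3 and Foxp3 held it. The windows of these genes and of Cish are shown because they carry the element in the genes that this pathway is best known for, with the element in capitals. A match describes letters in the window and is not evidence of binding. The Socs3 window lies at chr11:117969317-117969616, minus strand, the Foxp3 window at chrX:7580233-7580532, plus strand and the Cish window at chr9:107296409-107296708, plus strand.
Socs3: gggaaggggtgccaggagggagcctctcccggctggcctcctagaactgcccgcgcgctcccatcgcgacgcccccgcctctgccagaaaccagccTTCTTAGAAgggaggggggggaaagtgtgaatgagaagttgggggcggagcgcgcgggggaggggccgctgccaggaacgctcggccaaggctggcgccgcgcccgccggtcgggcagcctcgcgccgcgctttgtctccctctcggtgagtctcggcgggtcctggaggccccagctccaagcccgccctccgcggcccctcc
Foxp3: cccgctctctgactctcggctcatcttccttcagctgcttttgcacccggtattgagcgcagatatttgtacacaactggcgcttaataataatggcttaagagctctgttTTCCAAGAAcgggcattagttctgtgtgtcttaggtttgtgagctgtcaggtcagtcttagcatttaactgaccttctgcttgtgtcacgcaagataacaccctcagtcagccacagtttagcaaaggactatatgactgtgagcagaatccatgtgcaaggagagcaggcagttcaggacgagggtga
Cish: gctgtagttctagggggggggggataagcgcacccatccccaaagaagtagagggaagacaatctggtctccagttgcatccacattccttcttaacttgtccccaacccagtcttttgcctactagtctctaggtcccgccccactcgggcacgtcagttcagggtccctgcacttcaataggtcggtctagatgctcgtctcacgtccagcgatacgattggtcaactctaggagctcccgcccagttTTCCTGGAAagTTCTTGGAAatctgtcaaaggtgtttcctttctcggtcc

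**Figure D3:**
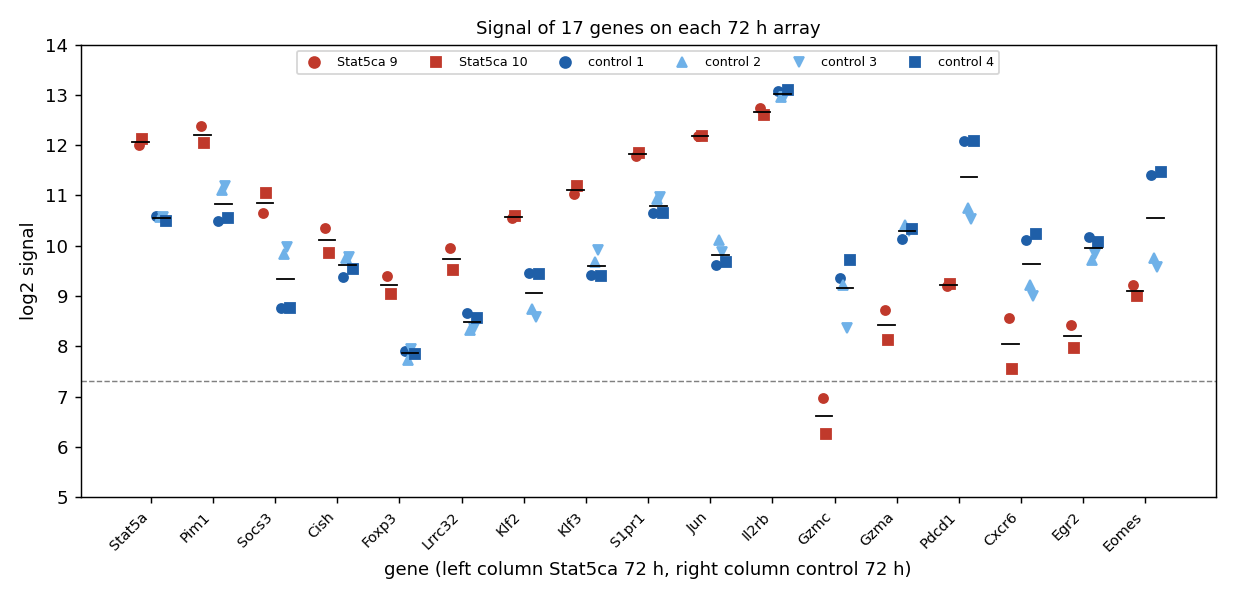
Points give the log2 signal of 17 genes on each array, Stat5ca (red) left of control (dark blue for arrays 1 and 4, light blue for arrays 2 and 3), with black lines at group means and a dashed line at the background level of 7.31. Stat5a controls lie together near 10.5, whereas Socs3, Pdcd1 and Eomes differ between the control pairs, and the Stat5ca arrays of Gzmc lie under background.

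Receptors of the common gamma-chain family showed no rise in 7 measured members, and 1 fell, with a median change of 0.21. Il2rb, the shared beta chain for interleukin-2 and interleukin-15, read 12.73 and 12.60 on the Stat5ca arrays and 13.08, 12.97, 12.97 and 13.09 on the control arrays, a fall of small size (−0.36 ± 0.09, adjusted p = 0.0255). Il2ra, the high-affinity chain for interleukin-2, read 13.30 and 13.24 on the Stat5ca arrays and 12.25, 12.98, 12.93 and 12.23 on the control arrays and was not called (0.67 ± 0.35, adjusted p = 0.316), and neither was Il7r, the interleukin-7 receptor (0.57 ± 0.20, adjusted p = 0.118). In both, control arrays 2 and 3 lay close to the Stat5ca arrays and control arrays 1 and 4 well under them. Of 17 other cytokine receptor genes, 2 rose and 0 fell. Il18r1, a receptor chain for interleukin-18, read 10.58 and 10.33 on the Stat5ca arrays and 9.60, 9.76, 9.55 and 9.72 on the control arrays, with both Stat5ca arrays above all controls (0.79 ± 0.10, adjusted p = 0.000614). Ifngr2, a receptor chain for interferon gamma, rose by 0.78 ± 0.20 (adjusted p = 0.0302). The threshold was missed without Stat5ca array 9 for Il2rb (−0.43) and Ifngr2 (0.85), without Stat5ca array 10 for Il2rb (−0.29) and Ifngr2 (0.71), without control array 1 for Il2rb (−0.34) and Ifngr2 (0.73), and without control array 4 for Il2rb (−0.34) and Ifngr2 (0.69).

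Some genes of naive and memory T cells rose. Of 16 transcription factors and regulators of these states (median change 0.23), 4 rose and 0 fell, against 2.37% and 3.35% of all genes. Klf2, which drives the genes for leaving lymphoid tissue, read 10.55 and 10.58 on the Stat5ca arrays and 9.45, 8.75, 8.58 and 9.44 on the control arrays. Klf3, a related repressor, read 11.03 and 11.19 on the Stat5ca arrays and 9.42, 9.68, 9.91 and 9.40 on the control arrays. In both the Stat5ca arrays stood together above every control, but the control pairs were ordered oppositely, arrays 1 and 4 higher for Klf2 and lower for Klf3. Klf2 rose by 1.51 ± 0.22 (adjusted p = 0.00149), Klf3 by 1.51 ± 0.12 (adjusted p = 1.03e-05), Lef1, a partner of beta-catenin in naive and memory cells, by 0.79 ± 0.13 (adjusted p = 0.00305), and Btg1, an inhibitor of proliferation, by 0.51 ± 0.10 (adjusted p = 0.00739). In the naive cells of the study the mean signals were 11.64 for Klf2, 11.60 for Klf3, 12.43 for Lef1 and 13.34 for Btg1. Without control arrays 1 and 4, 3 of the list rose, and without control arrays 2 and 3 it was 5. The call of Btg1 ended without Stat5ca array 9 (0.52) and without Stat5ca array 10 (0.50). That of Lef1 ended without Stat5ca array 10 (0.73).

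Of 8 genes for lymphoid homing and exit (median change 0.42), 3 rose and 0 fell, against 2.37% and 3.35% of all genes. Besides Klf2 these were S1pr1, the receptor for the lipid that draws T cells out of lymph nodes, and Cd69, which encodes a surface protein that removes that receptor. S1pr1 read 11.79 and 11.84 on the Stat5ca arrays and 10.65, 10.93, 10.96 and 10.65 on the control arrays, with both Stat5ca arrays above all controls, and rose by 1.02 ± 0.13 (adjusted p = 0.000509). Its mean in naive cells was 12.57. Cd69 read 12.17 and 11.51 on the Stat5ca arrays and 10.67, 11.20, 11.17 and 10.71 on the control arrays, a change of 0.90 ± 0.22 (adjusted p = 0.0295). Its Stat5ca arrays differed from each other by more than the controls of either pair. Ccr7, the lymph-node homing receptor, was high and near equal on all arrays (13.41 and 13.52 on the Stat5ca arrays and 13.38, 13.45, 13.49 and 13.37 on the control arrays) and was not called. Fits that left out 1 array ended calls without Stat5ca array 9 for Cd69 (0.57), without Stat5ca array 10 for Cd69 (1.23), without control array 1 for Cd69 (0.81), and without control array 4 for Cd69 (0.82).

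Of 18 genes of type 2, type 17 and regulatory T cells, 3 rose and 0 fell, against 2.37% and 3.35% of all genes. The median change was 0.08, and the 3 that rose were regulatory genes. Foxp3, the defining factor of regulatory T cells and a known STAT5 target, read 9.41 and 9.05 on the Stat5ca arrays and 7.90, 7.72, 7.96 and 7.85 on the control arrays. The controls lay close to each other in spite of their pairs, and the Stat5ca arrays stood clear of them (1.37 ± 0.11, adjusted p = 1.03e-05). Lrrc32, which encodes the GARP protein that presents latent TGF-beta on activated regulatory T cells, read 9.96 and 9.51 on the Stat5ca arrays and 8.65, 8.32, 8.37 and 8.57 on the control arrays, a change of 1.26 ± 0.14 (adjusted p = 0.000171). Ikzf4, the Ikaros family factor Eos, rose by 0.71 ± 0.14 (adjusted p = 0.00956). Gata3, the factor of type 2 cells, read 11.12 and 10.73 on the Stat5ca arrays and 10.66, 11.36, 11.41 and 10.69 on the control arrays and was not called. Foxp3 and Lrrc32 kept their calls in each fit that left out 1 array. Calls were lost without Stat5ca array 9 for Ikzf4 (0.61), and without Stat5ca array 10 for Ikzf4 (0.80). Cd4, the coreceptor of helper T cells, also rose, by 1.02 ± 0.27, or 0.98 counted from the background level (adjusted p = 0.0385), to 8.46 and 8.10 on the Stat5ca arrays, against 7.03 to 7.51 on the control arrays. The adjusted p passed the threshold no longer without Stat5ca array 9 for Cd4 (0.84), without Stat5ca array 10 for Cd4 (1.20), without control array 1 for Cd4 (0.94), and without control array 4 for Cd4 (0.97).

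Jun, a subunit of the AP-1 factor, read 12.19 and 12.17 on the Stat5ca arrays and 9.61, 10.12, 9.87 and 9.68 on the control arrays. It was the largest rise to be called in every fit that left out 1 array, at 2.36 ± 0.19 (adjusted p = 1.03e-05), and the mean in naive cells was 11.56. Of the 22 factors induced early after antigen recognition Jun was the only one to rise, while Egr2 and Egr3 fell, and the median change was −0.04. Egr2, a factor that restrains activated T cells, read 8.42 and 7.97 on the Stat5ca arrays and 10.17, 9.71, 9.83 and 10.08 on the control arrays. Its Stat5ca arrays lay under all controls (−1.75 ± 0.19, adjusted p = 0.00023), as did those of Egr3, its close relative (−1.08 ± 0.13, adjusted p = 0.000435).

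Dusp1, a phosphatase that switches off MAP kinases, read 12.22 and 10.87 on the Stat5ca arrays and 9.90, 9.97, 10.04 and 9.92 on the control arrays, with Stat5ca array 9 well above array 10 and the controls together (1.59 ± 0.29, adjusted p = 0.00601). Zfp36, which speeds the decay of cytokine transcripts, rose by 1.60 ± 0.36 (adjusted p = 0.0176). Ppp1r15a, which restores translation after stress by directing dephosphorylation of eIF2 alpha, read 10.31 and 10.02 on the Stat5ca arrays and 8.21, 8.93, 8.86 and 8.28 on the control arrays, with both Stat5ca arrays clear of the controls. It rose by 1.59 ± 0.24 (adjusted p = 0.00176). Of the dual-specificity phosphatases and related MAP kinase inhibitors, 2 of 12 rose (Dusp1 and Spred2) and 0 fell. Of 17 chaperone genes 1 rose and 2 fell. Dnajb9, an endoplasmic reticulum chaperone, rose by 0.98 ± 0.13 (adjusted p = 0.000682), whereas Hspd1, the mitochondrial chaperone, changed by −0.84 ± 0.16 (adjusted p = 0.007) and Sdf2l1, also of the endoplasmic reticulum, by −1.02 ± 0.28 (adjusted p = 0.0443). Without Stat5ca array 9 the calls of Dusp1 (0.91), Zfp36 (1.30) and Hspd1 (−0.84) ended. Without Stat5ca array 10 those of Zfp36 (1.90), Spred2 (0.67), Hspd1 (−0.84) and Sdf2l1 (−0.63) ended. The call of Sdf2l1 also ended without control array 1 (−1.002), 3 (−0.96) or 4 (−1.001).

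Ccr9, a receptor that guides T cells to the gut, read 9.07 and 8.85 on the Stat5ca arrays and 7.57, 6.03, 6.54 and 7.61 on the control arrays, at or near background on the controls, and rose by 2.02 ± 0.40, or 1.65 counted from the background level (adjusted p = 0.00959). Its mean in naive cells was 12.23. Dntt, the template-free DNA polymerase of antigen-receptor rearrangement, read 10.16 and 10.61 on the Stat5ca arrays and 6.55, 9.24, 9.15 and 6.79 on the control arrays. The gap between its control pairs exceeded the gap between the Stat5ca arrays and control arrays 2 and 3 (change 2.46 ± 0.61, adjusted p = 0.0289), and the same order of arrays held for Igsf23 (11.12 and 11.52 on the Stat5ca arrays and 8.92, 10.57, 10.49 and 8.84 on the control arrays) and for H2-Ob, a subunit of the MHC class II modulator H2-O (10.44 and 10.84 on the Stat5ca arrays and 8.24, 9.92, 10.14 and 8.23 on the control arrays). Serpinb1a, an inhibitor of neutrophil proteases, rose by 1.98 ± 0.55 (adjusted p = 0.0495), and its call was lost in each of the 6 fits that left out 1 array. Carns1, a carnosine synthase, rose by 1.59 ± 0.27, Neb, the giant thin-filament protein of muscle, by 1.84 ± 0.38, Slc16a5, of the monocarboxylate transporter family, by 1.60 ± 0.34 and Igsf23 by 1.61 ± 0.40 (adjusted p = 0.0042, 0.0119, 0.0126 and 0.0284). Fam183b read 10.13 and 10.38 on the Stat5ca arrays and 8.15, 8.60, 8.59 and 8.23 on the control arrays, a change of 1.87 ± 0.14 (adjusted p = 6.48e-06) that was called in every fit that left out 1 array. The threshold was missed without Stat5ca array 9 for Ccr9 (1.91), Dntt (2.68), Neb (1.74), Slc16a5 (1.60), Igsf23 (1.81) and H2-Ob (1.71), without Stat5ca array 10 for Ccr9 (2.13), Dntt (2.23), Carns1 (1.34), Neb (1.94), Slc16a5 (1.61), Igsf23 (1.41) and H2-Ob (1.31), without control array 1 for Dntt (1.996), Igsf23 (1.35) and H2-Ob (1.21), and without control array 4 for Dntt (2.08), Igsf23 (1.32) and H2-Ob (1.21).

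Most genes of the killing machinery were not called. Of 21 granzymes and genes of cytolytic granules, 17 of them above background, 2 fell, 0 rose and 19 were not called. Among all genes 3.35% fell and 2.37% rose. The median change of the list was −0.07. Gzmc, granzyme C, read 6.98 and 6.26 on the Stat5ca arrays and 9.36, 9.22, 8.36 and 9.72 on the control arrays and changed by −2.54 ± 0.33, or −1.86 counted from the background level (adjusted p = 0.000682); the Stat5ca arrays lay under background. Gzma, granzyme A, read 8.73 and 8.12 on the Stat5ca arrays and 10.13, 10.41, 10.28 and 10.33 on the control arrays, with both Stat5ca arrays under all controls (−1.86 ± 0.41, adjusted p = 0.0159). Gzmb, granzyme B, was among the brightest genes on all arrays (13.25 and 13.17 on the Stat5ca arrays and 12.73, 13.40, 13.31 and 12.79 on the control arrays). Its groups overlapped and it was not called (0.15 ± 0.35, adjusted p = 0.866), and likewise Prf1, the pore-forming perforin (−0.07 ± 0.16, adjusted p = 0.861). The call of Gzma ended without Stat5ca array 9 (−2.17) and without Stat5ca array 10 (−1.56).

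None of 14 effector transcription factors was called, though without control arrays 2 and 3 and between the male arrays 3 rose and 1 fell, and of 12 effector cytokine genes none was called, 6 of these being above background. Tbx21, which encodes T-bet, read 10.93 and 10.72 on the Stat5ca arrays and 11.04, 11.19, 11.19 and 10.999 on the control arrays (−0.28 ± 0.15, adjusted p = 0.334). Eomes, its relative, read 9.21 and 8.99 on the Stat5ca arrays and 11.41, 9.77, 9.57 and 11.46 on the control arrays. Both Stat5ca arrays of Eomes were under every control, but the control pairs stood far apart, and it was not called (−1.45 ± 0.44, adjusted p = 0.0682). Without control arrays 1 and 4 the difference was −0.57 (adjusted p = 0.316), and without control arrays 2 and 3 it was −2.33 (adjusted p = 6.11e-05). Prdm1, encoding Blimp-1, showed the opposite order: 9.38 and 9.06 on the Stat5ca arrays and 7.58, 9.26, 8.99 and 7.65 on the control arrays (0.85 ± 0.38, adjusted p = 0.228). Ifng, interferon gamma, read 10.42 and 8.84 on the Stat5ca arrays and 8.45, 8.72, 8.88 and 8.26 on the control arrays, so that Stat5ca array 9 stood high and array 10 lay within the range of the controls (1.05 ± 0.31, adjusted p = 0.0584). Tnf (−0.61 ± 0.24, adjusted p = 0.164) was not called, and Il2 lay under background on all 6 arrays.

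Of 13 inhibitory receptor genes (median change −0.13), 2 fell, 0 rose and 11 were not called, while 3.35% of all genes fell. Pdcd1, the receptor PD-1, read 9.20 and 9.24 on the Stat5ca arrays and 12.08, 10.76, 10.53 and 12.09 on the control arrays. The Stat5ca arrays were lowest, control arrays 2 and 3 followed and control arrays 1 and 4 were highest (−2.14 ± 0.36, adjusted p = 0.00341). Cd160 read 9.14 and 8.44 on the Stat5ca arrays and 10.23, 10.03, 9.83 and 10.29 on the control arrays, a change of −1.31 ± 0.19 (adjusted p = 0.00164). Ctla4 (0.06 ± 0.29, adjusted p = 0.944) and Lag3 (0.17 ± 0.23, adjusted p = 0.747) were not called, and nor was Havcr2, which encodes TIM-3 (−0.92 ± 0.56, or −0.73 counted from the background level, adjusted p = 0.397). Of 17 costimulatory genes, Tnfsf8, the ligand of CD30, rose (0.66 ± 0.14), while Tnfrsf9, the receptor 4-1BB (−0.71 ± 0.14), and Tnfsf14, the ligand LIGHT (−0.69 ± 0.18), fell. Klrc1, an inhibitory NK receptor that pairs with CD94, was the 1 called gene among 14 killer lectin-like receptors and changed by −2.26 ± 0.37, or −0.88 counted from the background level (adjusted p = 0.00305). Fits that left out 1 array ended calls without Stat5ca array 9 for Tnfsf8 (0.75) and Tnfsf14 (−0.86), without Stat5ca array 10 for Pdcd1 (−2.16), Cd160 (−0.96), Tnfsf8 (0.56), Tnfrsf9 (−0.58), Tnfsf14 (−0.53) and Klrc1 (−2.05), without control array 1 for Tnfsf14 (−0.69), without control array 2 for Tnfsf14 (−0.71), and without control array 4 for Tnfsf14 (−0.67).

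Chemokine receptors changed in both directions, with 1 of 13 raised (Ccr9) and 2 lowered, and a median change of −0.28. Ccr8, a receptor of activated and regulatory T cells, read 6.17 and 6.35 on the Stat5ca arrays and 8.59, 7.76, 7.51 and 8.33 on the control arrays (−1.79 ± 0.22, or −0.74 counted from the background level, adjusted p = 0.000509), with both Stat5ca arrays under background. Cxcr6, a receptor for homing to liver and inflamed tissue, read 8.55 and 7.55 on the Stat5ca arrays and 10.11, 9.22, 8.99 and 10.23 on the control arrays (−1.58 ± 0.35, adjusted p = 0.0167). Of 12 chemokine genes (median change −0.33), 3 fell and 0 rose, against 3.35% and 2.37% of all genes. Xcl1, which attracts cross-presenting dendritic cells, read 9.76 and 9.05 on the Stat5ca arrays and 12.27, 10.83, 10.86 and 12.25 on the control arrays (−2.15 ± 0.44, adjusted p = 0.011), with the control pairs apart as for Pdcd1. The other 2, Ccl6 (−3.45 ± 0.64, or −3.23 counted from the background level) and Ccl9 (−1.55 ± 0.43, or −1.44 counted from the background level), are known products of myeloid cells, and the myeloid marker mean was lower on the Stat5ca arrays too. Of 14 genes for integrins, integrin ligands and Cd44, Itga4, the alpha chain of VLA-4, rose (0.74 ± 0.18, adjusted p = 0.0257). Of 12 genes for selectin ligands and sialylation, St6gal1 (1.001 ± 0.25) and St3gal6 (0.49 ± 0.13), both sialyltransferases, rose. Calls were lost without Stat5ca array 9 for Ccl9 (−1.36), Itga4 (0.70), St6gal1 (1.07) and St3gal6 (0.47), without Stat5ca array 10 for Cxcr6 (−1.08), Xcl1 (−1.79), Ccl6 (−3.38), Ccl9 (−1.74), Itga4 (0.77), St6gal1 (0.94) and St3gal6 (0.50), without control array 1 for Ccl9 (−1.38), Itga4 (0.70), St6gal1 (0.85) and St3gal6 (0.42), and without control array 4 for Ccl9 (−1.35), Itga4 (0.72), St6gal1 (0.87) and St3gal6 (0.47).

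**Figure D4:**
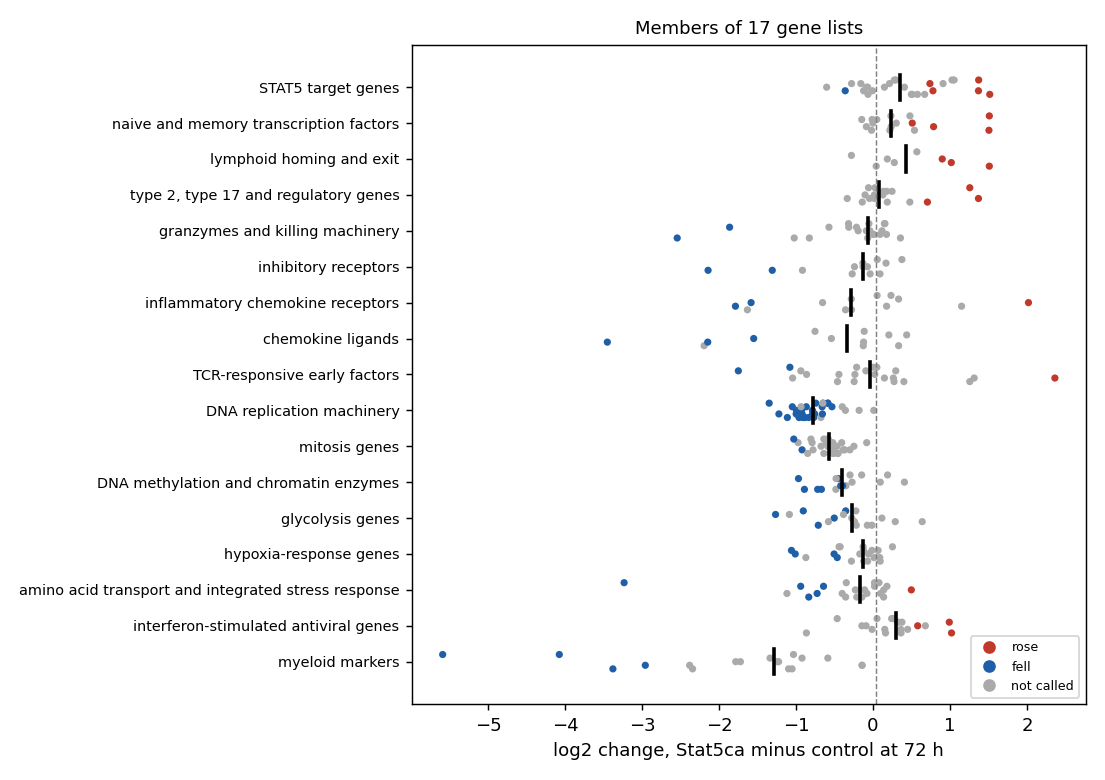
Each point is 1 gene of a list, with its log2 change of Stat5ca minus control across (red rose, blue fell, grey not called), a black bar at the median of the list and a dashed line at the median of all genes, 0.04. The DNA replication list lies almost wholly to the left with 25 of 32 genes called, and the myeloid markers reach furthest left.

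DNA replication was the list with the most called members. Of 32 measured replication genes, all above background, 25 fell, 0 rose and 7 were not called, against 3.35% of all genes that fell, and the median change was −0.79. Pola1, the catalytic subunit of DNA polymerase alpha, read 8.79 and 8.29 on the Stat5ca arrays and 10.25, 9.56, 9.39 and 10.34 on the control arrays. Lig1, the ligase that joins Okazaki fragments, read 10.10 and 9.55 on the Stat5ca arrays and 11.004, 11.002, 10.68 and 11.05 on the control arrays. Array 10 was lowest, array 9 next, and control array 3 lay under the other controls. Chaf1a, which loads histones on new DNA, read 8.84 and 8.31 on the Stat5ca arrays and 9.81, 9.58, 9.31 and 9.79 on the control arrays. The changes were −1.35 ± 0.25 for Pola1, −1.11 ± 0.19 for Lig1 and −1.05 ± 0.16 for Chaf1a (adjusted p = 0.00621, 0.00351 and 0.00229), and Tyms, which makes thymidylate, changed by −1.22 ± 0.32 (adjusted p = 0.0393). All subunits of the MCM2 to MCM7 helicase apart from Mcm5 were called, from −0.59 for Mcm4 to −0.99 for Mcm2, and Mcm5 itself changed by −0.68 (adjusted p = 0.0547). Cdt1, which licenses origins, differed by 0.01, the only member with a change above 0, and Rrm2, of ribonucleotide reductase, by −0.65 (adjusted p = 0.568).

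The count of falling replication genes moved with the arrays. It was 27 without Stat5ca array 9 and 0 without Stat5ca array 10, 4 without control arrays 1 and 4, 28 without control arrays 2 and 3, 10 with the myeloid mean as a covariate, and 13 between the male arrays. The median change stayed between −1.04 and −0.54 in these 6 fits. On array 10 the list read lower than on array 9 for each of its genes. The adjusted p passed the threshold no longer without Stat5ca array 10 for Pola1 (−1.10), Lig1 (−0.84), Chaf1a (−0.78), Tyms (−0.80), Mcm2 (−0.73) and Mcm4 (−0.41), without control array 1 for Tyms (−1.05) and Mcm4 (−0.55), and without control array 4 for Tyms (−1.06) and Mcm4 (−0.50).

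**Figure D5:**
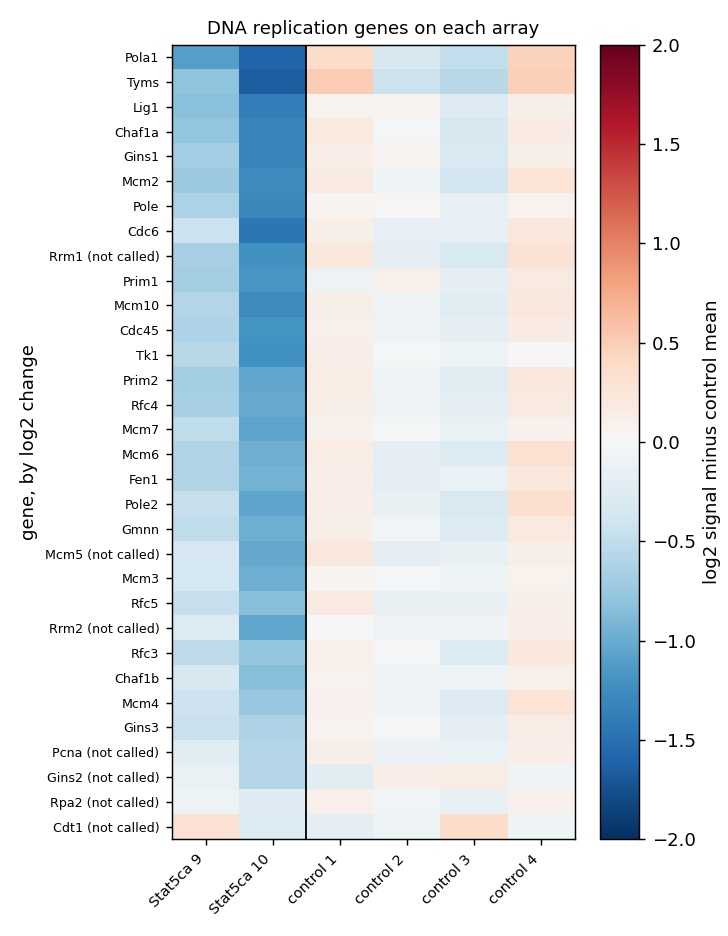
Rows are the 32 measured DNA replication genes in the order of their log2 change, columns are the 6 arrays with Stat5ca left of the line, and colour gives the log2 signal minus the mean of the 4 control arrays. Stat5ca array 10 is the deepest blue in nearly every row, array 9 is paler, and control arrays 1 and 4 are mostly redder than 2 and 3.

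Replication genes are classical targets of E2F factors, whose site was searched as TTTCCCGC, TTTCGCGC, TTTGCCGC and TTTGGCGC on both strands of the same promoter windows. It was present for 543 of 15614 genes (3.48%), for 5 of 359 genes that rose (1.39%) and for 59 of 532 that fell (11.1%). Of the 20 called replication genes with a window it was in 9. Over the whole list it was in 11 of 26, and these included Mcm5 and Cdt1, which were not called. Here too a match describes letters and is not evidence of binding. The windows of 3 called genes of the MCM helicase are shown because they hold a site, with sites on either strand in capitals. They lie at chr1:20820263-20820562, minus strand, for Mcm3, at chr1:128359656-128359955, minus strand, for Mcm6, where a pair of sites overlap, and at chr5:138171834-138172133, minus strand, for Mcm7.
Mcm3: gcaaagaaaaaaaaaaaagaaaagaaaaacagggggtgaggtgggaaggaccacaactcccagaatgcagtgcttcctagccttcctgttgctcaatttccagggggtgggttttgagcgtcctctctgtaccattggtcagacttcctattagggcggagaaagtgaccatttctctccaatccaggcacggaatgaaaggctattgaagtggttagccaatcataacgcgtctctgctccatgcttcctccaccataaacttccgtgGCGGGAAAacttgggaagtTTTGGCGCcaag
Mcm6: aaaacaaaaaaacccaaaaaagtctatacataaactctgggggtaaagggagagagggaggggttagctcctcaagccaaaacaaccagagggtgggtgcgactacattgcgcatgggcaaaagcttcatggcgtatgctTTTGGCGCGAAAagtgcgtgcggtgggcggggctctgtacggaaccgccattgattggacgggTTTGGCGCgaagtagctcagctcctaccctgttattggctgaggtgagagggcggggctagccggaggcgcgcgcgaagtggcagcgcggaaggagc
Mcm7: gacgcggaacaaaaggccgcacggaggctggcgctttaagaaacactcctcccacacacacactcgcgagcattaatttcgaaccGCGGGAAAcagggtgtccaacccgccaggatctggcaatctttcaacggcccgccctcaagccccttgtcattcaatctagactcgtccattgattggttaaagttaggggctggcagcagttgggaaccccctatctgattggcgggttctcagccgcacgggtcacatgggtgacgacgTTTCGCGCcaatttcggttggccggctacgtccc

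Mitosis genes were lower on the Stat5ca arrays too, but most were not called. Of 29 members (median change −0.58), 2 fell, 0 rose and 27 were not called, while 3.35% of all genes fell. In 26 of the 29 the Stat5ca arrays lay under all controls. Over all genes the groups did not overlap, in either direction, in 32.9%, and over genes above background in 39.5%. Ndc80, of the outer kinetochore, changed by −1.03 ± 0.20 (adjusted p = 0.00889) and Kif2c, a microtubule depolymerase, by −0.92 ± 0.25 (adjusted p = 0.0428). With the myeloid mean as a covariate the median was 0.22. Of 21 cyclins, kinases and inhibitors of the G1 phase, 3 fell and 0 rose. E2f1, which drives S-phase genes, read 9.42 and 8.80 on the Stat5ca arrays and 10.08, 10.07, 9.65 and 10.04 on the control arrays (−0.85 ± 0.22, adjusted p = 0.035). Ccne1, encoding cyclin E1, changed by −0.51 ± 0.12 and Cdk4, the partner of D cyclins, by −0.36 ± 0.09 (adjusted p = 0.0223 and 0.0365). Leaving out Stat5ca array 9 ended the calls of Kif2c (−1.13), Ccne1 (−0.60) and Cdk4 (−0.42). Leaving out Stat5ca array 10 ended those of Ndc80 (−0.85), Kif2c (−0.71), E2f1 (−0.54), Ccne1 (−0.43) and Cdk4 (−0.30). The calls of Kif2c, E2f1, Ccne1 and Cdk4 ended without control array 1 (−0.91, −0.81, −0.49 and −0.32). They also ended without control array 4 (−0.86, −0.82, −0.47 and −0.33). Without control array 2 those of Kif2c (−0.93) and E2f1 (−0.81) ended.

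Of 16 enzymes of DNA methylation and chromatin (median change −0.41), 7 fell and 0 rose, against 3.35% and 2.37% of all genes. Dnmt1, the methyltransferase that copies methylation to new DNA, read 11.41 and 11.08 on the Stat5ca arrays and 12.03, 11.85, 11.79 and 12.004 on the control arrays, with both Stat5ca arrays under the controls and the controls close together (−0.67 ± 0.11, adjusted p = 0.00312). Uhrf1, which recruits that enzyme to hemimethylated sites, changed by −0.89 ± 0.22 (adjusted p = 0.0304) and Hells, a remodeller needed for methylation of repeats, by −0.97 ± 0.21 (adjusted p = 0.0143). Suv39h2, which methylates lysine 9 of histone H3, changed by −0.72 ± 0.12, or −0.48 counted from the background level (adjusted p = 0.00419). The remaining falls were of Eed and Suz12, of the Polycomb complex PRC2, and Hdac1, a deacetylase. Without control arrays 1 and 4 the falls numbered 2, without control arrays 2 and 3 they were 9, and with the myeloid covariate 3. The threshold was missed without Stat5ca array 9 for Eed (−0.48) and Suz12 (−0.48), without Stat5ca array 10 for Dnmt1 (−0.51), Uhrf1 (−0.51), Hells (−0.80), Suv39h2 (−0.58), Eed (−0.42), Suz12 (−0.31) and Hdac1 (−0.35), without control array 1 for Uhrf1 (−0.89), Eed (−0.41) and Suz12 (−0.36), without control array 2 for Uhrf1 (−0.87) and Eed (−0.47), and without control array 4 for Uhrf1 (−0.89), Eed (−0.39) and Suz12 (−0.36).

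Of 17 glycolysis genes (median change −0.28) 5 fell and 0 rose, against 3.35% and 2.37% of all genes. Hk2, the inducible hexokinase, read 8.67 and 7.82 on the Stat5ca arrays and 9.28, 9.86, 9.59 and 9.34 on the control arrays. Slc2a1, the glucose transporter GLUT1, read 11.69 and 10.69 on the Stat5ca arrays and 12.04, 12.24, 12.20 and 11.91 on the control arrays, so that array 9 lay just under the controls and array 10 far under them. Pfkl, a phosphofructokinase, read 10.42 and 10.07 on the Stat5ca arrays and 11.07, 10.86, 10.81 and 11.08 on the control arrays and changed by −0.71 ± 0.11 (adjusted p = 0.00283). Hk2 changed by −1.27 ± 0.27 (adjusted p = 0.0142), Slc2a1 by −0.91 ± 0.21 (adjusted p = 0.0194) and Slc16a1, the lactate exporter MCT1, by −0.50 ± 0.13 (adjusted p = 0.0318); the fifth was Ldha. Without control arrays 1 and 4 there were 2 falls and between the male arrays 1, with 1 rise. Without Stat5ca array 9 the calls of Slc16a1 (−0.64) and Ldha (−0.39) ended. All 5 ended without Stat5ca array 10, for Hk2 (−0.84), Slc2a1 (−0.41), Pfkl (−0.53), Slc16a1 (−0.37) and Ldha (−0.32). The call of Slc16a1 also ended without control array 1 (−0.50), 2 (−0.49) or 4 (−0.46).

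Of 20 genes of the hypoxia response, 4 fell and 0 rose, against 3.35% and 2.37% of all genes. Ero1a, an oxidase of the endoplasmic reticulum, read 11.20 and 10.83 on the Stat5ca arrays and 11.82, 12.31, 12.25 and 11.92 on the control arrays (−1.06 ± 0.17, adjusted p = 0.00283) and Bnip3, a mitophagy receptor, 11.08 and 10.57 on the Stat5ca arrays and 11.87, 11.83, 11.73 and 11.91 on the control arrays (−1.01 ± 0.15, adjusted p = 0.00161). Both Stat5ca arrays lay under all controls in these. Narf (−0.51 ± 0.12) and Egln1, the oxygen sensor PHD2 (−0.46 ± 0.11), fell by less. The median of the list, −0.13, was near that of all genes and was 0.11 between the male arrays. Fits that left out 1 array ended calls without Stat5ca array 9 for Egln1 (−0.53), without Stat5ca array 10 for Ero1a (−0.87), Bnip3 (−0.76), Narf (−0.34) and Egln1 (−0.40), without control array 1 for Narf (−0.47), and without control array 4 for Narf (−0.49) and Egln1 (−0.44).

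Amino acid supply held 5 falls and 1 rise in 23 genes (median change −0.17), against 3.35% and 2.37% of all genes. Psat1, of serine synthesis, read 10.73 and 10.39 on the Stat5ca arrays and 11.52, 11.53, 11.39 and 11.56 on the control arrays, with the 4 controls close together and both Stat5ca arrays under them (−0.94 ± 0.09, adjusted p = 7.84e-05). Mthfd1l, of mitochondrial folate metabolism, changed by −0.83 ± 0.12 (adjusted p = 0.00151) and Shmt1, the cytosolic serine hydroxymethyltransferase, by −0.73 ± 0.15 (adjusted p = 0.0119). Slc7a11, the cystine importer, read 5.73 and 5.66 on the Stat5ca arrays and 9.18, 8.73, 8.48 and 9.33 on the control arrays, under background on the Stat5ca arrays (−3.23 ± 0.32, or −1.62 counted from the background level, adjusted p = 7.07e-05). Atf4, the factor that induces such genes in the integrated stress response, rose by 0.50 (adjusted p = 0.0302). Calls were lost without Stat5ca array 9 for Atf4 (0.52), without Stat5ca array 10 for Mthfd1l (−0.70), Shmt1 (−0.50) and Atf4 (0.47), without control array 1 for Atf4 (0.48), and without control array 4 for Atf4 (0.43). Of 23 sterol and fatty acid synthesis genes only Acaca, the acetyl-CoA carboxylase, was called (−0.73 ± 0.13), of 23 ribosome biogenesis genes only Fbl, which encodes fibrillarin (−0.48 ± 0.09), and of 16 genes for mitochondrial fatty acid oxidation only Hadha (−0.34 ± 0.09), all lower. The sterol list turned with the control pair, with 9 rises, 1 fall and a median change of 0.39 without control arrays 2 and 3, 5 rises and a median of 0.51 between the male arrays, and 3 falls and a median of −0.29 without control arrays 1 and 4. The ribosome biogenesis list held 7 falls without control arrays 2 and 3 and none without control arrays 1 and 4. The adjusted p passed the threshold no longer without Stat5ca array 9 for Fbl (−0.47) and Hadha (−0.38), without Stat5ca array 10 for Acaca (−0.64), Fbl (−0.49) and Hadha (−0.30), without control array 1 for Hadha (−0.33), and without control array 4 for Hadha (−0.32).

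Some interferon-induced genes rose. Of 20 interferon-stimulated genes, 3 rose and 0 fell, with a median change of 0.29. Of 5 measured interferon-inducible GTPases, 2 rose and 0 fell, with a median of 0.56. Among all genes 2.37% rose and 3.35% fell. Ifit3, which binds viral RNA complexes, read 8.09 and 8.57 on the Stat5ca arrays and 7.59, 7.24, 6.73 and 7.68 on the control arrays, near background on the controls (1.02 ± 0.26, adjusted p = 0.0308). Irf9, the DNA-binding part of the interferon-activated complex ISGF3, read 11.15 and 11.20 on the Stat5ca arrays and 10.68, 10.50, 10.45 and 10.75 on the control arrays (0.58 ± 0.12, adjusted p = 0.0115). Ifit1 rose by 0.99 ± 0.26, and of the GTPases Irgm1 by 0.87 ± 0.23 and Gbp4 by 0.56 ± 0.15 (adjusted p = 0.0404, 0.0416 and 0.043). The calls of Ifit1, Irgm1 and Gbp4 were lost in each of the 6 fits that left out 1 array. Between the male arrays no gene of either list was called. None of 13 genes of MHC class I presentation was called. The calls of Ifit3 and Irf9 ended without Stat5ca array 9 (1.26 and 0.60) and without Stat5ca array 10 (0.78 and 0.56). That of Ifit3 also ended without control array 2 (0.997).

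Most survival genes were not called, and of all genes 5.72% were called. Of 14 BCL2 family genes Bmf, which promotes apoptosis, rose (0.62 ± 0.14, adjusted p = 0.0167) and Bcl2a1c, of the A1 family of survival genes, fell (−1.41 ± 0.31, adjusted p = 0.017); A1 copies are near identical, so the probe set may not tell them apart. Of 16 genes of the antigen receptor and its signalling, Txk, a Tec kinase, rose (0.61 ± 0.12, adjusted p = 0.0109) and 0 fell, and Cd3e (0.21 ± 0.11, adjusted p = 0.316) and Cd8a (0.15 ± 0.11, adjusted p = 0.45) were not called. No gene was called among 8 of the GIMAP family (median change 0.27), 7 of the Schlafen family (0.05) and 15 S100 and annexin genes (−0.22). The threshold was missed without Stat5ca array 9 for Bmf (0.72) and Bcl2a1c (−1.43), without Stat5ca array 10 for Bmf (0.52), Bcl2a1c (−1.38) and Txk (0.43), and without control array 1 for Bcl2a1c (−1.31).

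The largest falls were of genes that myeloid cells are known for. Of 18 myeloid markers (median change −1.29) 4 fell and 0 rose, against 3.35% and 2.37% of all genes. In 16 of the 18 the Stat5ca arrays lay under every control, while 32.9% of all genes had no overlap in either direction. Lyz2, lysozyme of macrophages and granulocytes, read 6.30 and 6.36 on the Stat5ca arrays and 12.46, 11.51, 11.39 and 12.34 on the control arrays. H2-Ea, an MHC class II chain, read 6.63 and 7.01 on the Stat5ca arrays and 11.73, 10.62, 10.48 and 11.61 on the control arrays. Gpnmb, a glycoprotein of macrophages, read 8.21 and 7.75 on the Stat5ca arrays and 11.82, 10.99, 10.99 and 11.42 on the control arrays. All 3 were near or under background on the Stat5ca arrays except Gpnmb, at up to 8.21, and high on all controls. Lyz2 changed by −5.59 ± 0.60, or −4.62 counted from the background level, H2-Ea by −4.29 ± 0.49, or −3.80 counted from the background level and Gpnmb by −3.32 ± 0.23 (adjusted p = 0.000156, 0.000261 and 5.24e-06). Ptgs2, the inducible cyclooxygenase, changed by −3.99 ± 0.48, or −3.50 counted from the background level, Thbs1, thrombospondin 1, by −3.63 ± 0.35 and Fcer1g, the signalling chain of Fc receptors, by −3.38 ± 0.74. Pla2g7, a phospholipase of macrophages, changed by −3.92 ± 0.77, or −2.90 counted from the background level, Cybb, of the phagocyte oxidase, by −4.08 ± 0.85, or −3.45 counted from the background level, and the lectins Clec4n by −3.80 ± 0.93, or −2.32 counted from the background level, Clec4e by −3.65 ± 0.76, or −2.10 counted from the background level and Clec7a by −2.96 ± 0.66, or −2.004 counted from the background level. Wfdc17 changed by −4.08 ± 0.72, or −2.79 counted from the background level and Ly6i by −3.32 ± 0.47.

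Adgre1, a defining macrophage marker, read 6.11 and 5.99 on the Stat5ca arrays and 7.98, 6.26, 6.42 and 7.75 on the control arrays, and Csf1r, the receptor for the macrophage growth factor, 7.30 and 6.97 on the Stat5ca arrays and 8.86, 8.09, 7.77 and 8.80 on the control arrays; neither was called. Of 17 markers of dendritic cells and MHC class II, H2-Ea, H2-Aa (−3.11 ± 0.45, or −3.05 counted from the background level) and Cd74 (−2.79 ± 0.47) fell and H2-Ob rose. Of 12 platelet and granulocyte markers 3 fell, with a median change of −1.43: Mcpt8, a basophil protease (−3.13 ± 0.51, or −2.23 counted from the background level), and the platelet chemokines Ppbp (−2.85 ± 0.62, or −2.17 counted from the background level) and Pf4 (−1.44 ± 0.28, or −0.97 counted from the background level). Of 12 B-cell markers, 3 above background, Cd79b rose (0.77 ± 0.21). These marker genes moved with the groups, and how much of any other fall came from the cells that express them was not tested. With the mean of the 18 myeloid markers as a covariate in the fit, 388 of the 668 falls were again called. In that fit 5 of the 18 markers themselves fell and 5 rose, and 4 of these falls were the ones called without the covariate. A call kept in that fit thus does not set a gene apart from myeloid RNA. Leaving out Stat5ca array 9 ended the calls of Cybb (−4.06), Fcer1g (−3.40), Clec7a (−3.37), Pla2g7 (−3.98) and Clec4n (−3.92). It also ended those of Clec4e (−3.37), Ppbp (−2.92), Pf4 (−1.45) and Cd79b (0.74). Leaving out Stat5ca array 10 ended those of Cybb (−4.09), Fcer1g (−3.35), Clec7a (−2.55), Pla2g7 (−3.85), Clec4n (−3.68) and Clec4e (−3.93). It also ended those of Wfdc17 (−4.005), Cd74 (−2.68), Mcpt8 (−2.95), Ppbp (−2.78), Pf4 (−1.42) and Cd79b (0.81). The calls of Clec4n and Cd79b ended without control array 1 (−3.71 and 0.68) and without control array 4 (−3.64 and 0.67).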

How the data were processed

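RNA was measured on 19 one-colour Affymetrix mouse gene arrays. The deposited values are log2 signals for 35557 probe sets on each array; the log2 scale was read from their range. Affymetrix Expression Console made them, per the submitters' processing notes; its version is not given in the sources used here, nor are the summarization and normalization it ran. Array medians over probe sets ran from 7.69 to 7.89. For arrays, their number limits the precision.

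A gene stands for its brightest probe set among the 21789 that carry 1 gene symbol in the platform annotation (1621 carry several and 12147 none), which left 19938 genes, 999 with more than 1 probe set. Symbols were updated through RefSeq for 19856. The 16 TCRP1A arrays were fitted in 1 model by group with limma 3.58.1 in R 4.3.3 (lmFit, eBayes with a constant prior), so that the 2 Stat5ca arrays shared a spread with the other groups, and p-values were adjusted over all genes by Benjamini-Hochberg at 0.05. No numbering links arrays of different groups. Changes counted from background set group means under 7.31 to that level. A 2-sided exact permutation test of 2 against 4 arrays cannot reach 0.05.

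The named genes are the 15 largest rises and 15 largest falls among called genes with no overlap and the higher mean above background, no more than 4 called members per list, and fixed genes of the STAT5 pathway and of T-cell states; further names are said to have been picked after their values were seen, and list members cited for a count are from the same lists. The genes and lists were chosen with earlier results of these data known. Alternatives were a 2-fold minimum, another variance model, other arrays in the fit, quantile and median scaling, no dim genes, mean probe sets, each probe set, weights for arrays, RNA integrity or the myeloid marker mean as a covariate, and each array left out in turn. Added after the data were seen were the fits without control arrays 1 and 4, without 2 and 3, between male arrays, without naive arrays 34 and 36, and with the Y-linked level as a covariate. Tables came from pandas 2.3.3 and numpy 2.4.6 in Python 3.11.15, and figures from matplotlib 3.10.9.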

Additional observations from a re-analysis of the deposited data

Results flagged for a closer look

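In 5 of the 131 named genes, 1 of the 4 control arrays stood apart from the other 3 by Dixon's test at the 95% level. Chance flags about 1 in 20 groups. Stat5a read 10.50 on control array 4 (10.499), under the other controls. Tnfsf8 read 9.56 on control array 2 (9.5568), above the others. Lig1 read 10.68 (10.685), E2f1 9.65 (9.6511) and Il2 5.94 (5.9415) on control array 3, each under the other controls. For Lig1 and E2f1 both Stat5ca arrays lay under the array that stood apart. For Stat5a that array lay on the side away from the Stat5ca arrays, which stood above all controls. Il2 was under background throughout.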

How the results depend on the processing

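With all arrays and settings as reported, 1140 genes were called. The count was 183 with a 2-fold minimum and 4605 with array weights, and of the fits added after the data were seen it was 329 without control arrays 1 and 4, 2883 without control arrays 2 and 3, and 2233 with the Y-linked level as a covariate. Leaving out 1 array at a time gave 98 to 1797. In the other settings the count was within 1.5 times, from 912 with the RNA integrity number as a covariate to 1678 without naive arrays 34 and 36, but a like count can hold different genes: the fit on the 6 arrays of the comparison alone called 927, of which 643 were among the 1140. Rises were 41.4% of the calls, 51.5% with array weights and 55.9% with the myeloid covariate, against 37.2% with median centring and 47.6% with quantile normalization. Of the 109 named genes that were called, 24 were called in all 6 fits that left out 1 array, 76 when the myeloid level was a covariate, 52 without control arrays 1 and 4, 100 without control arrays 2 and 3 and 69 between male arrays, and no named change that was called turned its sign. The named genes called with the myeloid covariate include Lyz2 and Cybb, which are part of that mean. With 2 Stat5ca arrays, the fit rests on the spread of other groups. No paired analysis was possible because no numbering links arrays of different groups.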

Other observations

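Over all genes, list members among them, 75 genes, 36 that rose and 39 that fell, were called in each fit that left out 1 array, and all 75 were also called with the myeloid covariate, without either control pair and between the male arrays. These further fits reuse the arrays of the fits that chose the 75, so they are no separate support. The myeloid mean includes Lyz2, itself 1 of the 75. What part myeloid RNA has in the others was not tested. The genes named next were picked from the 75 after their values were seen. Nos2, the inducible nitric oxide synthase of macrophages, had the lowest adjusted p of all, with 7.59 and 7.57 on the Stat5ca arrays and 10.29, 10.64, 10.69 and 10.21 on the control arrays, a change of −2.88 ± 0.12 (adjusted p = 6.53e-09). Both Stat5ca arrays lay near background and all 4 controls well above it. Runx1, a factor of T-cell development, read 10.23 and 10.30 on the Stat5ca arrays and 9.09, 9.26, 9.31 and 9.13 on the control arrays, a change of 1.07 ± 0.09 (adjusted p = 2.29e-05). Nr1d2, the circadian repressor REV-ERB beta, read 9.29 and 9.31 on the Stat5ca arrays and 7.74, 8.25, 8.07 and 7.998 on the control arrays, a change of 1.29 ± 0.13 (adjusted p = 0.000126). Klf11, a relative of Klf2 and Klf3, rose by 1.01 ± 0.13 and Cd7, a T-cell surface protein, by 0.92 ± 0.14. Epas1, which encodes the oxygen-regulated factor HIF-2 alpha, read 7.80 and 7.50 on the Stat5ca arrays and 8.97, 8.90, 8.71 and 9.08 on the control arrays, a change of −1.27 ± 0.11 (adjusted p = 2.5e-05).

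Probe sets over 300 microRNA genes gave 5 rises and 7 falls. Both shares were under those over all genes, of which 2.37% rose and 3.35% fell. Of the 12, 6 lay above background in the group with the higher mean. They were also picked after their values were seen. Such a probe set reads the transcript that holds the hairpin and not the mature microRNA. Mir7-1 read 10.93 and 11.07 on the Stat5ca arrays and 9.46, 9.83, 9.73 and 9.57 on the control arrays, a change of 1.35 ± 0.13 (adjusted p = 5.18e-05); it lies within Hnrnpk in mammals, and Hnrnpk itself differed by −0.12 (adjusted p = 0.545). Mir15a read 7.73 and 8.19 on the Stat5ca arrays and 10.02, 8.89, 8.99 and 10.15 on the control arrays (−1.55 ± 0.32, adjusted p = 0.011) and Mir16-2 read 7.02 and 6.92 on the Stat5ca arrays and 8.47, 7.90, 7.57 and 8.63 on the control arrays (−1.17 ± 0.26, or −0.84 counted from the background level, adjusted p = 0.0167), with the Stat5ca arrays under all controls and control arrays 1 and 4 above 2 and 3. Mir142 (−1.24 ± 0.25) and Mir18 (−0.78 ± 0.20, or −0.25 counted from the background level) fell, and Mir191 rose (0.61 ± 0.11). Fits that left out 1 array ended calls without Stat5ca array 9 for Mir15a (−1.32), Mir16-2 (−1.22), Mir142 (−1.21) and Mir18 (−0.57), without Stat5ca array 10 for Mir15a (−1.78), Mir16-2 (−1.12), Mir142 (−1.26), Mir18 (−0.99) and Mir191 (0.57), without control array 1 for Mir18 (−0.74), without control array 2 for Mir18 (−0.76), and without control array 4 for Mir18 (−0.73). The mature sequences of Mir15a and Mir16-2 are shown with Mir7-1 because the first 2 share a seed, bases 2 to 8, given in capitals. They are from RefSeq, build GRCm38.p6, at chr13:58392841-58392863, minus strand, for miR-7a-5p, chr14:61632075-61632096, minus strand, for miR-15a-5p, and chr3:69009918-69009939, plus strand, for miR-16-5p.
miR-7a-5p: uGGAAGACuagugauuuuguugu
miR-15a-5p: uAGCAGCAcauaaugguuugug
miR-16-5p: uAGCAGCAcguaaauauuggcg

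The control pairs differed in many genes, called or not. Over all 19938 genes, control arrays 2 and 3 both stood above control arrays 1 and 4 in 30.6% and both under them in 23.4%. Control arrays 2 and 3 both stood above control arrays 1 and 4 in 328 of the 472 genes that rose (69.5%) and both under them in 49 (10.4%). Of the 668 genes that fell, arrays 2 and 3 both lay under arrays 1 and 4 in 447 (66.9%) and both above them in 55 (8.23%). The cause of this order was not tested.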
